A study of Mus musculus with 2 samples.

Results

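Integrins are cell surface receptors built of an α and a β subunit, and laminins are the trimers of an α, a β and a γ chain to which several of them bind in basement membranes. The genes described here are the mouse integrin α and β subunits and laminin chains, chosen by symbol and not by any measured value. They were 37 of the 23386 genes named in the files, 26 integrin subunits and 11 laminin chains. Of these, 30 reached 1 FPKM in at least 1 library and are called measured, as did 13834 genes in all.

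The series compared spermatogonial progenitor cells, the germ cells that maintain spermatogenesis, with and without Dnmt3l, which encodes a partner of the DNA methyltransferases that has no methylating activity of its own. The mice were C57BL/6 and 8 days old when the testes were taken. There was 1 library from Dnmt3l knockout mice and 1 from wild-type mice, both of poly(A) RNA, so no difference has a replicate check, no test between genotypes was possible, and every value describes these libraries. The labels do not say how the cells were purified or how many animals were pooled.

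In the seminiferous tubule, spermatogonia sit on a basement membrane that Sertoli and peritubular myoid cells lay down around them. Laminin there is linked to type IV collagen by nidogens, and spermatogonia hold on to it through integrins, of which the α6 and β1 subunits are known as surface markers used to enrich spermatogonial stem cells. Inside the cell, talins and kindlins bind the β tail and couple it to the cytoskeleton.

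Values are FPKM, fragments scaled to transcript length and library size, summed over the RefSeq transcripts of a gene and the transcript models of 300 nt or more that were assembled from the reads of each library. Bounds are the sums of the lower and upper bounds that Cufflinks gave each transcript and concern the estimate within a library only. For some of the partner and marker genes below, the listed FPKM lay outside its own bounds. An FPKM is per length, so a model of a few 3′ exons adds its whole FPKM to the sum. Therefore 3 further levels are given for each gene, all sums of the FPKM of whole models and not read coverage. For the exon level, the FPKM of all models covering a base were added up and averaged across the RefSeq exon bases of the gene. The 5′ and 3′ end levels use only the outermost 1000 nt on that side of the longest RefSeq transcript. Ratios are log2((knockout + 1)/(wild-type + 1)), a scale that understates the differences of low genes.

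The sequences shown first are those of the splice forms that differed most between the libraries among these genes. The α6 subunit is made with either of 2 cytoplasmic tails, known as A and B, which leave the membrane side through a shared exon and then read different exons. Both lie on chromosome 2 (plus strand, GRCm38, from the GENCODE M21 annotation). The coding part of the A tail, 105 nt, is at chr2:71853534-71853638, and that of the B tail, 159 nt, at chr2:71855854-71856012. The last 30 bases of the shared exon are in lower case and the tail in capitals.
Itga6 A tail: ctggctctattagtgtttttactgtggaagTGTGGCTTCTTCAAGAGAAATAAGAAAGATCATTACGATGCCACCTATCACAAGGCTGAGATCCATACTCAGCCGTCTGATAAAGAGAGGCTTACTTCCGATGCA
Itga6 B tail: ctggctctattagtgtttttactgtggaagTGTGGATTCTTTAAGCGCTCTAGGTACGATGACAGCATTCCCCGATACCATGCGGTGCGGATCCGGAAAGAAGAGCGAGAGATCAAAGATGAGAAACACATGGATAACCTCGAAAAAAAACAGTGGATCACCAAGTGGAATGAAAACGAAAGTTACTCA
The second is an exon of 12 nt, number 52 of 64 in the laminin α2 gene, at chr10:27021461-27021472 on the minus strand. It is in capitals, between 15 bases of each neighbouring exon.
Lama2 exon 52: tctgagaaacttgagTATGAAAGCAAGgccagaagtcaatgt

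Itga6 was the most abundant integrin α transcript in both libraries, and was lower in the knockout library. Its summed level was 10.6 FPKM in the knockout library (bounds 9.76 to 11.5) and 24.9 FPKM in the wild-type library (22.0 to 27.9), a log2 ratio of -1.16. The exon level was 10.6 in the knockout library, against 19.7 in the wild-type library (log2 ratio -0.83), and the 5′ and 3′ ends gave -0.82 and -0.87. Thus all 4 measures were lower, and the bounds of the sums were apart. In the knockout library the whole level was assigned to the RefSeq transcript of 26 exons, which carries the A tail, and no model used the B tail. In the wild-type library that RefSeq transcript had a listed 0, and the level was split over 4 assembled models. The largest of these, at 11.8 FPKM, skipped exon 25 and read the B tail, while models with the A tail carried 3.40 and 4.4 FPKM, and a piece of 1 exon at the 3′ end carried 5.34 FPKM. The A tail therefore had 10.6 FPKM in the knockout library and 7.80 FPKM in the wild-type library, where it made up 39.8% of the tails. The B tail was listed at 0 in the knockout library and had 11.8 FPKM in the wild-type library, 60.2% of the tails there. A listed 0 can be a failed estimate in such files, and the share has no counting interval because the files hold no counts.

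**Figure D1:**
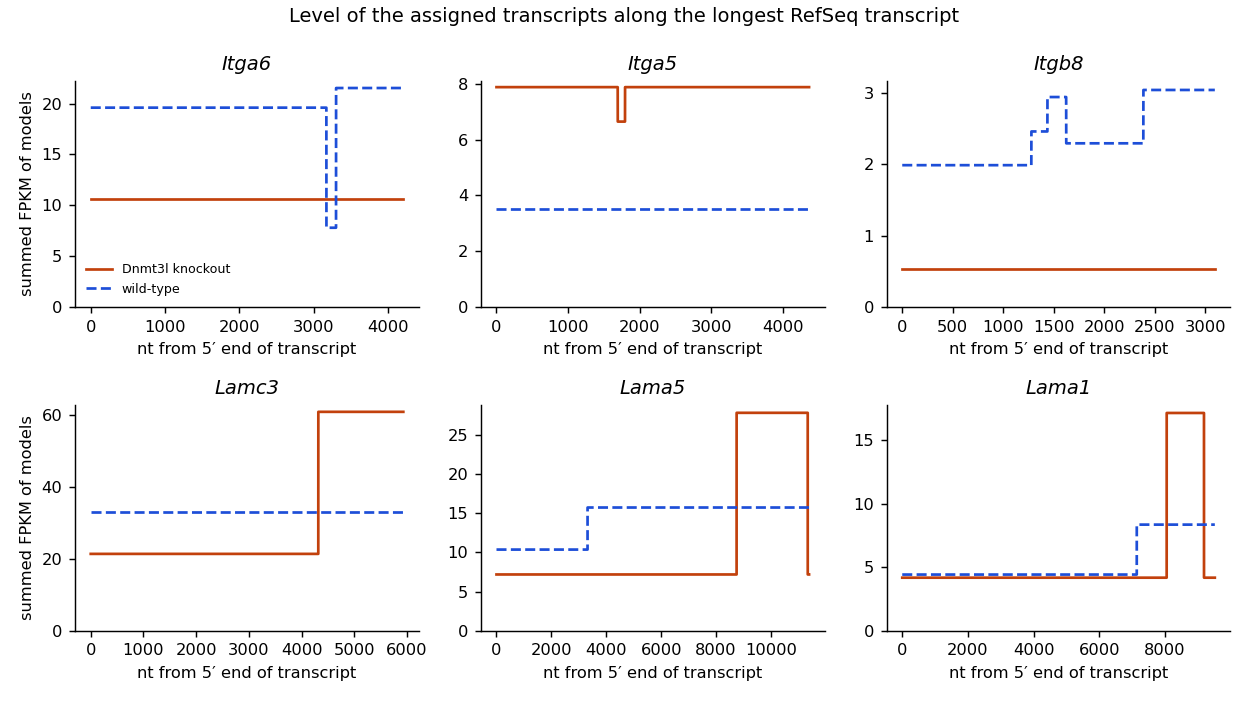
Summed FPKM of the assigned transcripts and models (y axis) along the longest RefSeq transcript from its 5′ end (x axis, nt) for 6 genes, knockout library as a solid and wild-type library as a dashed line. The dip of Itga6 in the wild-type library is exon 25 with the A tail at 7.80 FPKM; Itga5 and Itgb8 differ along the whole transcript, while Lamc3, Lama5 and Lama1 are higher in the knockout library only over a 3′ stretch.

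The other laminin-binding α subunits did not share the lower level. Itga3, which pairs with β1 in epithelia, had 10.4 FPKM in the knockout library (8.87 to 11.9) and 4.66 FPKM in the wild-type library (4.15 to 5.17), a log2 ratio of 1.01 and the largest of the measured members. Its RefSeq transcript had 3.59 FPKM in the knockout library and 4.66 FPKM in the wild-type library, and the rest of the knockout sum, 6.78 FPKM, was a model of 10 exons at the 3′ end. At the 5′ end Itga3 was lower in the knockout library, at 3.59, against 4.66 in the wild-type library (log2 ratio -0.30), so the 2 ends of the transcript differed in direction. Itga7, the laminin receptor of muscle, had 7.53 FPKM in the knockout library and 7.09 FPKM in the wild-type library (log2 ratio 0.08), with overlapping bounds. Both libraries read 2 alternative internal exons of Itga7. The RefSeq exon of 120 nt had 3.13 FPKM in the knockout library and 3.34 FPKM in the wild-type library, and another exon of 132 nt in its place had 4.4 FPKM in the knockout library and 3.75 FPKM in the wild-type library.

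Among the α subunits that recognise the RGD sequence of fibronectin and related ligands, Itga5 was higher and Itgav lower in the knockout library by every measure. Itga5, the fibronectin receptor subunit, had 7.88 FPKM in the knockout library (6.88 to 8.87) and 3.50 FPKM in the wild-type library (3.03 to 3.97). Its log2 ratio was 0.98 for the sum, 0.97 at the exon level and 0.98 at both ends, and it lay between 0.60 and 1.23 in the 12 alternative settings computed for it. In the knockout library a model of the neighbouring gene Gtsf1, on the same strand and at 25.9 FPKM, ran into the Itga5 region but shared 0 bases with its RefSeq exons. By exon level it ranked 2 among the 18 α subunits in the knockout library and 6 in the wild-type library. Itgav, which pairs with several β subunits and binds vitronectin and latent TGF-β, had 2.66 FPKM in the knockout library (2.37 to 2.94) and 4.12 FPKM in the wild-type library (3.71 to 4.54), a log2 ratio of -0.49 in all 4 measures. The other members were low. Itga8, the nephronectin receptor subunit, had 1.21 FPKM in the knockout library and 1.10 FPKM in the wild-type library. Itga2b, of the platelet fibrinogen receptor, had 1.71 FPKM in the knockout library and 0.88 FPKM in the wild-type library. The bounds of both overlapped between the libraries.

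The collagen-binding and α4 and α9 subunits differed little in sum. Itga1, a receptor subunit for collagen and laminin, had 1.65 FPKM in the knockout library and 1.29 FPKM in the wild-type library, and the gene Pelo lies inside it on the same strand. Itga10, a collagen receptor of cartilage, had 2.30 FPKM in the knockout library and 2.33 FPKM in the wild-type library. Itga11, a collagen receptor of fibroblasts, had 1.80 FPKM in the knockout library and 1.02 FPKM in the wild-type library, with overlapping bounds. Itga2, the collagen receptor of platelets and epithelia, was not measured, at 0.07 FPKM in the knockout library and 0.23 FPKM in the wild-type library. Itga4, which binds VCAM-1, had 2.56 FPKM in the knockout library and 3.0 FPKM in the wild-type library. Itga9, a tenascin receptor subunit, had 5.83 FPKM in the knockout library and 5.16 FPKM in the wild-type library. The last pair of values hid a difference in form: at the 5′ end Itga9 had 1.82 in the knockout library and 5.16 in the wild-type library, and 4.01 FPKM of the knockout level was assigned to a shorter RefSeq transcript that lacks the 5′ end.

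The common β1 subunit was the highest integrin transcript in both libraries and nearly equal between them. Itgb1, the partner of most α subunits above, had 78.9 FPKM in the knockout library (74.6 to 83.6) and 84.4 FPKM in the wild-type library (79.5 to 89.5), a log2 ratio of -0.10. By exon level it made up 63.3% of all β transcripts in the knockout library and 72.3% in the wild-type library. Of the other 5 measured β subunits, 1 was lower in the knockout library and 4 were higher. Itgb8, a partner of αv in the activation of TGF-β, had 0.54 FPKM in the knockout library (0.33 to 0.73) and 3.69 FPKM in the wild-type library (2.36 to 5.08), a log2 ratio of -1.61 and the lowest of the measured members. Its exon level was 0.54 in the knockout library and 2.39 in the wild-type library, a log2 ratio of -1.14. All of the wild-type level was in 5 assembled models, 1 of which spanned all 14 exons at 1.34 FPKM, and the RefSeq transcript was listed at 0 there. RefSeq transcripts alone therefore gave the opposite sign, a log2 ratio of 0.62.

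Itgb2, the β subunit of leukocyte integrins, had 6.52 FPKM in the knockout library (5.54 to 7.19) and 3.59 FPKM in the wild-type library (2.93 to 4.22). Its log2 ratio was 0.71 in all 4 measures. Itgb5, another partner of αv, had 31.9 FPKM in the knockout library (28.8 to 35.1) and 17.2 FPKM in the wild-type library (15.9 to 18.6). Its log2 ratio was 0.85 for the sum and 0.57 at the exon level, and its RefSeq transcripts had 18.4 FPKM in the knockout library and 17.2 FPKM in the wild-type library. Itgb3, which pairs with αv and αIIb, had 10.8 FPKM in the knockout library (9.14 to 12.4) and 5.27 FPKM in the wild-type library (4.77 to 5.79). Here 7.01 FPKM of the knockout sum belonged to a model of 2 exons, and at the 5′ end the level was 3.75 in the knockout library and 5.27 in the wild-type library. Itgb7, the partner of α4 and αE in lymphocytes, had 1.40 FPKM in the knockout library and 0.79 FPKM in the wild-type library, with overlapping bounds. Itgb4, the α6 partner of hemidesmosomes, was not measured, at 0.88 FPKM in the knockout library and listed at 0 in the wild-type library. The 3′ end of Itgb4 overlaps Galk1 on the opposite strand, at 32.6 FPKM in the knockout library and 39.6 FPKM in the wild-type library, and the protocol names no strand-marking step. Itgb6, an epithelial partner of αv, was listed at 0 in both libraries.

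The leukocyte α subunits were low in both libraries. Itgal, of the lymphocyte receptor LFA-1, had 3.94 FPKM in the knockout library and 2.31 FPKM in the wild-type library, a log2 ratio of 0.58 for the sum and 0.66 at the exon level, with overlapping bounds. Itgam, of the macrophage receptor Mac-1, had 2.53 FPKM in the knockout library and 2.16 FPKM in the wild-type library. Itgax, known from dendritic cells, had 0.35 FPKM in the knockout library and 0.30 FPKM in the wild-type library, and Itgad 0.16 FPKM in the knockout library and 0.06 FPKM in the wild-type library, so neither was measured. Itgad overlaps Cox6a2 on the opposite strand. Itgae, the E-cadherin receptor subunit of lymphocytes in epithelia, had 2.06 FPKM in the knockout library and 3.67 FPKM in the wild-type library. Of the wild-type sum 2.79 FPKM was a model of 5 exons, and the exon level had the opposite direction, 1.73 in the knockout library and 1.07 in the wild-type library. Haspin lies within Itgae on the opposite strand, at 10.8 FPKM in the knockout library and 7.03 FPKM in the wild-type library, but shared 0 bases with its RefSeq exons. In the wild-type library an unstranded model at 1.29 FPKM shared 99 bases with those exons. The direction of Itgae is uncertain, because the sum and the exon level differ.

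**Figure D2:**
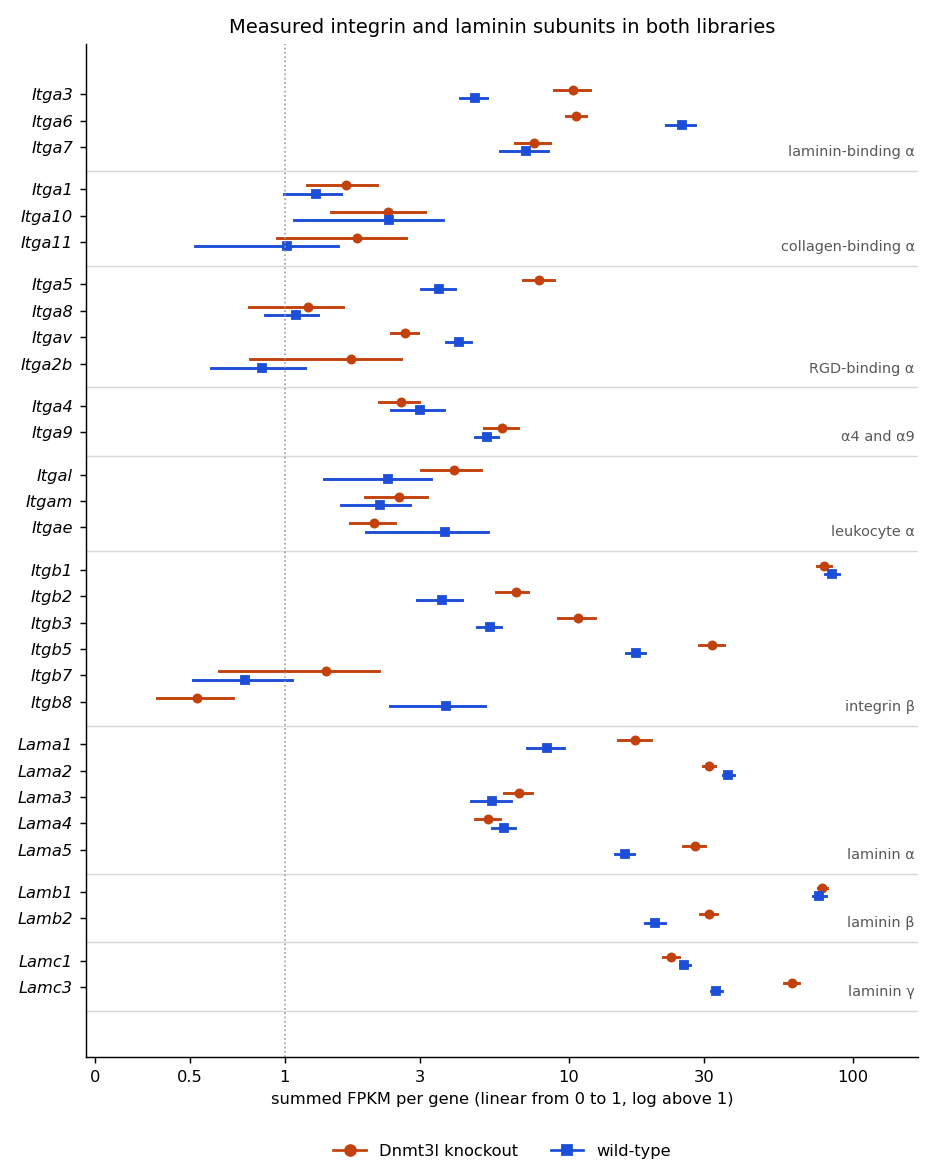
Summed FPKM of the 30 measured genes (x axis, linear from 0 to 1 and logarithmic above) in the knockout library (circles) and the wild-type library (squares), by role; horizontal lines are the summed Cufflinks bounds within a library and the dotted line marks 1 FPKM. Itgb1 and Lamb1 lie near 80 FPKM in both libraries with overlapping bounds, Itga6 and Itgb8 are lower in the knockout library, and Itga5, Itgb2, Itgb5 and Lamc3 higher in this sum. The exon level of Lamc3 was not higher, at 32.1 in the knockout library and 33.1 in the wild-type library.

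Laminin transcripts were abundant, and the same chain led each class in both libraries. By exon level the leading α chain was Lama2, at 53.9% of the α chains in the knockout library and 56.1% in the wild-type library. The leading β chain was Lamb1, at 74.1% in the knockout library and 79.0% in the wild-type library. The leading γ chain was Lamc3, at 59.3% in the knockout library and 55.9% in the wild-type library. Summed over the 11 chains, the FPKM was 282 in the knockout library and 227 in the wild-type library, but the exon levels added up to 217 in the knockout library and 219 in the wild-type library. For the 26 integrin subunits the FPKM was 196 in the knockout library and 183 in the wild-type library, and the exon levels added up to 170 in the knockout library and 164 in the wild-type library.

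Lama2, the laminin α chain of muscle basement membranes, had 31.1 FPKM in the knockout library (29.8 to 32.8) and 36.4 FPKM in the wild-type library (34.8 to 38.1), a log2 ratio of -0.22. The exon of 12 nt shown above was included in 27.4 FPKM in the knockout library, 87.9% of the total, and in 25 FPKM in the wild-type library, 68.7%. It was skipped in 3.78 FPKM in the knockout library and 11.4 FPKM in the wild-type library. The lower sum was thus assigned to the form without the exon, while the form with it was slightly higher in the knockout library. Lama4, the α chain of blood vessels, had 5.20 FPKM in the knockout library and 5.92 FPKM in the wild-type library, a log2 ratio of -0.16 in all 4 measures.

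Lama5 and Lama1 were higher in the knockout library by the sum and not along most of the transcript. Lama5, the broadly expressed α chain, had 27.8 FPKM in the knockout library (25.2 to 30.1) and 15.7 FPKM in the wild-type library (14.5 to 16.9). Of the knockout sum 20.6 FPKM was a model of 15 exons near the 3′ end, out of 79. At the exon level Lama5 was lower in the knockout library, at 11.9, against 14.2 in the wild-type library, and at the 5′ end at 7.18, against 10.4 in the wild-type library. Lama1, the α chain of the earliest embryonic basement membranes, had 17.1 FPKM in the knockout library (14.9 to 19.4) and 8.36 FPKM in the wild-type library (7.15 to 9.59). Of the knockout sum 13 FPKM was a model of 8 of the 63 exons, and the 5′ end had 4.18 in the knockout library and 4.43 in the wild-type library. Lama3, the α chain of epidermal laminin, had 6.66 FPKM in the knockout library and 5.38 FPKM in the wild-type library. In both libraries most of this was in models of its 3′ part, and the 5′ end had 1.38 in the knockout library and 0.29 in the wild-type library.

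Among the β and γ chains Lamb1 was nearly equal in both libraries, Lamb2 was higher in the knockout library and Lamc1 lower. Lamb1, the common β chain, had 77.9 FPKM in the knockout library (75.6 to 80.9) and 76.1 FPKM in the wild-type library (72.4 to 80.4), a log2 ratio of 0.03. Lamb2, the β chain of muscle synapses and kidney filters, had 31.1 FPKM in the knockout library (28.9 to 33.4) and 20.1 FPKM in the wild-type library (18.5 to 21.8), a log2 ratio of 0.61 for the sum and 0.14 at the 5′ end. Lamb3, of epidermal laminin, was not measured, at 0.16 FPKM in the knockout library and listed at 0 in the wild-type library, where Camk1g overlaps its 3′ end on the opposite strand. Lamc1, the γ chain of most laminins, had 22.9 FPKM in the knockout library (21.5 to 24.5) and 25.5 FPKM in the wild-type library (24.6 to 26.8). At its 5′ end it had 10.5 in the knockout library and 25.5 in the wild-type library.

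Lamc3, the γ chain known from the junctions of Sertoli cells with spermatids in the rat, was the laminin γ chain with the largest sum in both libraries. It had 60.8 FPKM in the knockout library (57.2 to 64.7) and 33.1 FPKM in the wild-type library (31.7 to 34.7), a log2 ratio of 0.86. A model of 4 exons at the 3′ end carried 39.5 FPKM in the knockout library, with 15.5 FPKM in a model of all 28 exons and 5.89 FPKM in the RefSeq transcript. All of the wild-type level was in the RefSeq transcript. At the exon level Lamc3 had 32.1 in the knockout library and 33.1 in the wild-type library, and at the 5′ end 21.4 in the knockout library and 33.1 in the wild-type library.

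Over the 30 measured genes, 1 (Itga3) was at least 2-fold higher in the knockout library, 3.33%, where 7.70% of all measured genes were. At least 2-fold lower were 2 (Itga6 and Itgb8), 6.67%, where 3.53% of all measured genes were. At 1.5-fold, 9 genes were higher (30%, background 22.7%) and 3 lower (10%, background 9.06%). The bounds were apart for 9 higher genes (background 35.4%) and for 5 lower genes, Itga6, Itgav, Itgb8, Lama2 and Lamc1 (background 16.2%), and overlapped for the other 16. Each gene is 3.33% of the 30, and these shares lie near those of all genes. At the exon level none was 2-fold higher (background 4.87%) and Itgb8 was 2-fold lower (background 2.94%), while 3 were at least 1.5-fold higher, Itga5, Itgal and Itgb2 (background 17.0%), and 2 lower, Itga6 and Itgb8 (background 8.67%). The median log2 ratio of the 30 was 0.19, against 0.22 over all measured genes, and it was 0.06 against 0.16 at the exon level, -0.19 against 0.09 at the 5′ end and 0.15 against 0.23 at the 3′ end.

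Only 4 of the 30 genes passed 1.5-fold in the same direction in the sum, at the exon level and at both ends. Higher in the knockout library were Itga5 and Itgb2, 6.67%, where 13.6% of all measured genes were, and lower were Itga6 and Itgb8, 6.67%, where 5.36% were. In a looser count with no threshold, 9 genes were higher by all 4 measures (30%, background 50.8%) and 8 lower (26.7%, background 26.1%), and 13 were mixed. Higher in the sum but lower at the 5′ end were 10 genes (33.3%, background 12.7%), Itga3, Itgb3, Lama1, Lama5 and Lamc3 among them. Among genes of 4000 nt or more they were 9 of 24 members (37.5%, background 22.1%).

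**Figure D3:**
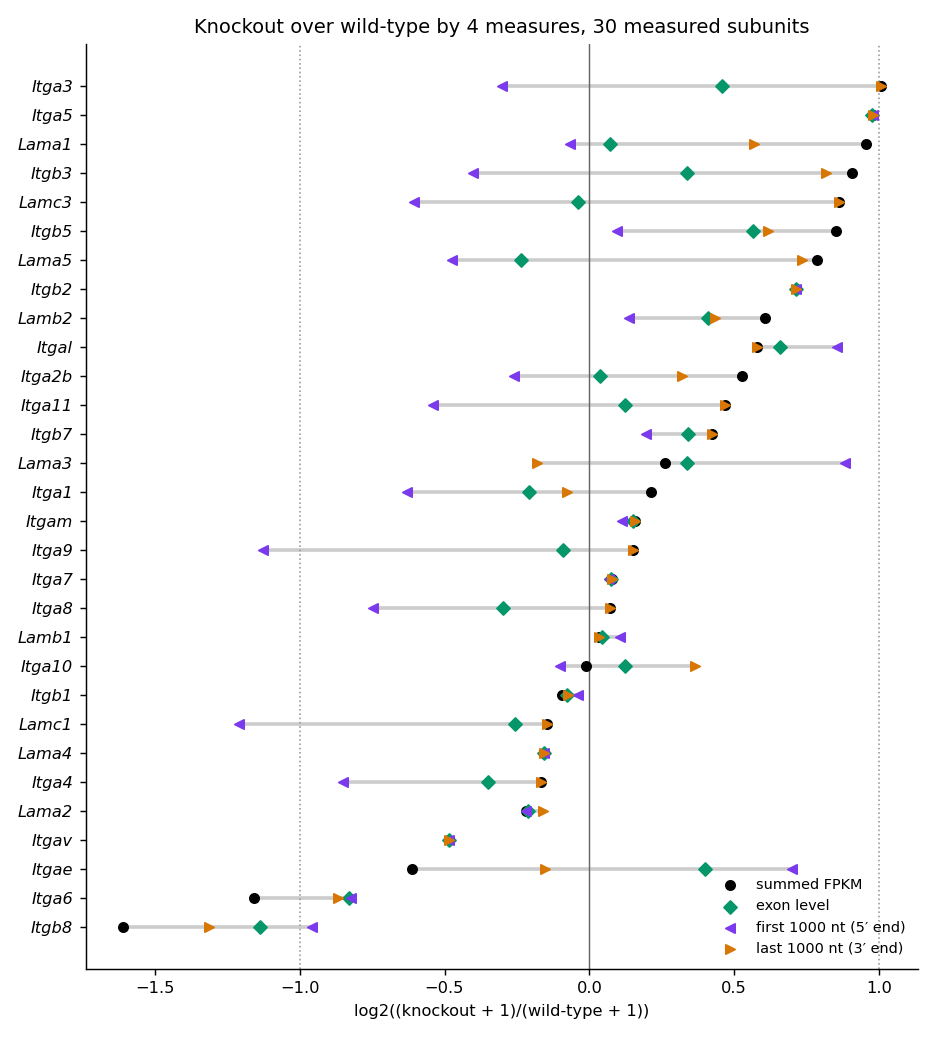
Log2 ratio of the knockout over the wild-type library (x axis) for the 30 measured genes by summed FPKM (circles), exon level (diamonds) and the levels over the first and last 1000 nt (left and right triangles), ordered by the sum. For Itga5, Itgb2 and Itgav the measures coincide at 0.98, 0.71 and -0.49, while for Lamc3 they run from -0.61 at the 5′ end to 0.86 for the sum.

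These genes are long, and ratios in these libraries depended on transcript length. Their longest RefSeq transcripts ran from 2674 to 11388 nt, with a median of 5044 nt, against 2750 nt over the measured genes. The median log2 ratio over all genes was 0.54 for the 1221 genes under 1000 nt, -0.06 for the 3279 genes of 4000 to 8000 nt and -0.35 for the 528 genes of 8000 nt or more. Set beside genes of 4000 nt or more, the 24 members of that length had a median of 0.15, against -0.09 over 3807 genes. Of these members 7 were at least 1.5-fold higher in the sum, 29.2%, where 11.0% of such genes were, and 1 was lower, 4.17%, where 17.0% were. The difference narrowed away from the sum: the medians of long members and long genes were 0.00 and -0.18 at the exon level and -0.26 and -0.37 at the 5′ end. A 3′ to 5′ ratio at least 1.5-fold larger in the knockout library was found for 10 long members, 41.7%, where 32.8% of genes of that length had one. Over all lengths these 10 were 33.3% of the measured members, where 15.5% of measured genes were. The ratio was at least 1.5-fold smaller for 2 members, Itgae and Lama3 (6.67%, background 3.11%).

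**Figure D4:**
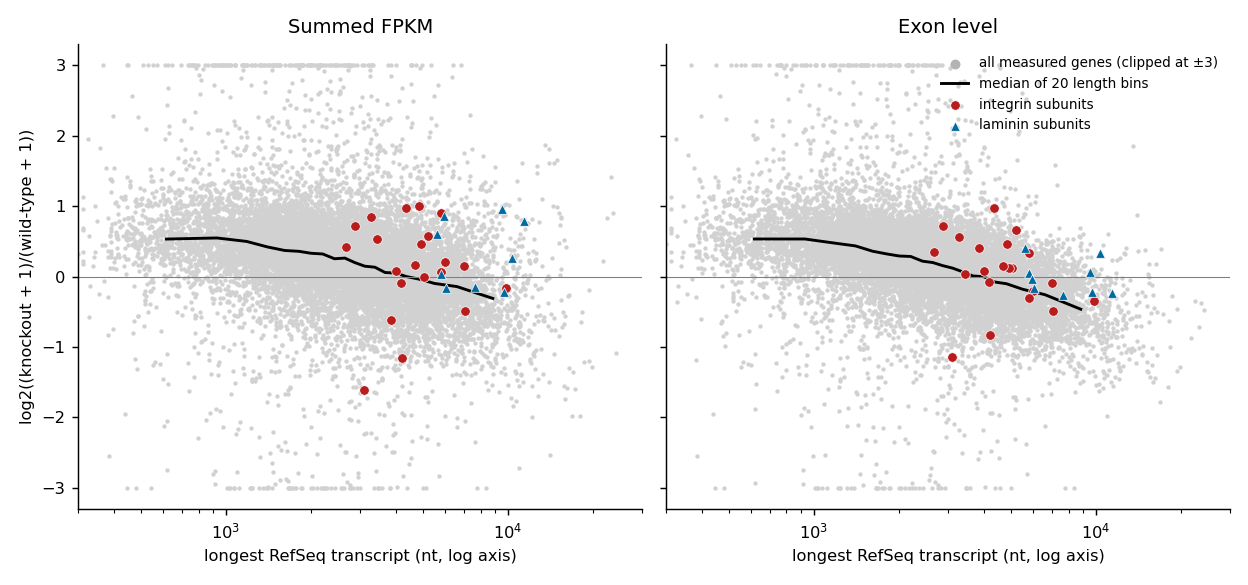
Log2 ratio of the knockout over the wild-type library (y axis, clipped at 3 in either direction) against the longest RefSeq transcript (x axis, nt, log scale) for summed FPKM (left) and the exon level (right); grey points are all 13834 measured genes, the line joins the medians of 20 length bins, circles are integrin and triangles laminin genes. Most members lie above the line in the sum, Itga6 and Itgb8 well below it in both panels.

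Genes that work with these subunits were read from 6 lists. Of all measured genes, 7.70% were at least 2-fold higher and 3.53% lower, the background for the counts in these and the marker lists. Of the integrin adaptors and focal adhesion genes 39 of 40 were measured, 3 were at least 2-fold higher and none lower, and their median log2 ratio was 0.34 (0.15 at the exon level). The 3 were Parvg, Flna and Itgb1bp1. Parvg, a parvin of blood cells, had 1.67 FPKM in the knockout library and 0.32 FPKM in the wild-type library. Flna, an actin crosslinker that binds β tails, had 170 FPKM in the knockout library and 72.8 FPKM in the wild-type library, but an exon level ratio of -0.09 (log2). Itgb1bp1, which binds the β1 tail, had 10.7 FPKM in the knockout library and a listed 0 in the wild-type library. It alone of this list was at least 2-fold higher at the exon level (background 4.87%). That level is built from the same listed FPKM and was also 0 in the wild-type library, so it is no separate check. The kindlin of most tissues, Fermt2, had 31.7 FPKM in the knockout library and 31.7 FPKM in the wild-type library, and the kindlin of blood cells, Fermt3, had 8.64 FPKM in the knockout library and 4.34 FPKM in the wild-type library.

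The other basement membrane genes had a median log2 ratio of 0.01 over 24 genes, with 1 at least 2-fold higher and none lower. That gene was Col4a2, a type IV collagen chain, at 213 FPKM in the knockout library and 69.2 FPKM in the wild-type library, with an exon level ratio of 0.31 (log2). Its partner chain Col4a1 had 120 FPKM in the knockout library and 102 FPKM in the wild-type library, with an exon level ratio of -0.06 (log2). Col4a6 had 5.36 FPKM in the knockout library and 2.64 FPKM in the wild-type library, with an exon level ratio of 0.05 (log2). The remaining type IV collagen chains were lower in the knockout library in sum. Col4a3 had 7.39 FPKM in the knockout library and 9.10 FPKM in the wild-type library, Col4a4 had 14.1 FPKM in the knockout library and 18.2 FPKM in the wild-type library, and Col4a5 had 8.79 FPKM in the knockout library and 9.11 FPKM in the wild-type library. The nidogens were slightly lower in the knockout library, with overlapping bounds for Nid1 and bounds apart for Nid2. Nid1 had 45.0 FPKM in the knockout library and 48.8 FPKM in the wild-type library, and Nid2 had 29.7 FPKM in the knockout library and 36.0 FPKM in the wild-type library. Npnt, nephronectin, the ligand of α8β1, had 0.97 FPKM in the knockout library and 2.31 FPKM in the wild-type library.

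No laminin receptor other than integrins was 2-fold different among 7 measured (median log2 ratio 0.12). Sdc4, a syndecan, had 237 FPKM in the knockout library and 134 FPKM in the wild-type library. Bcam, a receptor of laminin α5, had 11.5 FPKM in the knockout library and 6.49 FPKM in the wild-type library. Sdc1 had 10.2 FPKM in the knockout library and 13.6 FPKM in the wild-type library. The 12 tetraspanins and other lateral partners of integrins had a median log2 ratio of 0.51 and no 2-fold difference. Among them Cd9 had 121 FPKM in the knockout library and 67.8 FPKM in the wild-type library, Cd37 had 9.18 FPKM in the knockout library and 4.96 FPKM in the wild-type library, and Slc3a2, the CD98 heavy chain, had 192 FPKM in the knockout library and 116 FPKM in the wild-type library.

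Of 22 further integrin ligands 20 were measured, with a median log2 ratio of 0.43, 1 at least 2-fold higher and none lower. The higher gene was Tgfb1, whose latent form αv integrins bind and activate, at 52.2 FPKM in the knockout library (49.4 to 55.3) and 14.6 FPKM in the wild-type library (13.1 to 16.1). Its log2 ratio was 1.77 for the sum and at the exon level. Tgfbi, a matrix protein, had 38.3 FPKM in the knockout library and 20.5 FPKM in the wild-type library, and Cdh1, E-cadherin, had 8.56 FPKM in the knockout library and 4.72 FPKM in the wild-type library. Fn1, fibronectin, the ligand of α5β1, had 47.0 FPKM in the knockout library (45.3 to 49.5) and 65.5 FPKM in the wild-type library (63.1 to 68.7), opposite in direction to Itga5. Of the netrins, relatives of laminin short arms, 5 of 6 were measured and 2 were at least 2-fold higher. Ntng2 had 8.88 FPKM in the knockout library and 3.85 FPKM in the wild-type library, and Ntn3 had 1.24 FPKM in the knockout library and a listed 0 in the wild-type library. At the exon level neither was 2-fold higher, with log2 ratios of 0.14 for Ntng2 and 0.50 for Ntn3. Ntn5 had 1.35 FPKM in the knockout library and 2.83 FPKM in the wild-type library, and Ntn4 had 2.21 FPKM in the knockout library and 2.82 FPKM in the wild-type library. The exon level of Ntn5 had the opposite direction, 1.67 in the knockout library and 1.25 in the wild-type library. The median of the netrins was -0.11 for the sum and 0.14 at the exon level, and all of these lists were read with the results of the subunits known.

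Markers of somatic cells moved with some of the subunits, and their part in the results was not tested. In a bulk library fewer cells of a type and less RNA per cell cannot be told apart. Of 14 macrophage and leukocyte markers 7 were at least 2-fold higher and 1, Cd68, lower, and their summed level was 1054 FPKM in the knockout library and 548 FPKM in the wild-type library (median log2 ratio 0.99, beside 0.71 for Itgb2, 0.58 for Itgal, 0.16 for Itgam and -0.61 for Itgae). Lyz2 had 261 FPKM in the knockout library and 141 FPKM in the wild-type library, and C1qb had 162 FPKM in the knockout library and 66.8 FPKM in the wild-type library. Both values of Lyz2 lay above their own bounds (211 to 230 and 113 to 127), as did the wild-type value of C1qb (52.5 to 62.1). Cd68 was listed at 0 in the knockout library and had 24.6 FPKM in the wild-type library. The pan-leukocyte marker Ptprc had 1.98 FPKM in the knockout library and 2.29 FPKM in the wild-type library. Of the 5 platelet markers 1 was measured, Pf4, at 175 FPKM in the knockout library and 73.1 FPKM in the wild-type library, beside the low Itga2b. The knockout value of Pf4 lay above its own bounds, 117 to 136. The summed FPKM of the platelet genes Gp9 and Gp1bb was 0 in both libraries, and that of Ppbp and Treml1 was 0 in the wild-type library. The exon level of Gp1bb, which counts models not assigned to it, was 3.85 in the knockout library and 1.62 in the wild-type library.

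In summed FPKM the laminin chains were higher in the knockout library. Their exon levels added up to 217 there and 219 in the wild-type library. Sertoli cell markers were higher in the knockout library in the sum and at the exon level, where their median log2 ratio was 0.655. Of 12, 5 were at least 2-fold higher and none lower, and they added up to 1068 FPKM in the knockout library and 484 FPKM in the wild-type library (median log2 ratio 0.78). Clu had 420 FPKM in the knockout library and 179 FPKM in the wild-type library, and Aard 166 FPKM in the knockout library and 98.2 FPKM in the wild-type library. The Sertoli, peritubular, endothelial and Leydig lists each had a median above the 0.22 of all measured genes, and the fibroblast median lay near it. The list medians were not adjusted for transcript length. The 8 peritubular and smooth muscle markers added up to 503 FPKM in the knockout library and 325 FPKM in the wild-type library (median 0.62, none 2-fold different), with Acta2 at 186 FPKM in the knockout library and 124 FPKM in the wild-type library and Myl9 at 178 FPKM in the knockout library and 109 FPKM in the wild-type library. The 6 fibroblast and stroma markers added up to 784 FPKM in the knockout library and 605 FPKM in the wild-type library (median 0.25), led by Dcn, at 275 FPKM in the knockout library and 177 FPKM in the wild-type library, and Col3a1, at 218 FPKM in the knockout library and 170 FPKM in the wild-type library. The 10 endothelial markers, 3 of them at least 2-fold higher, added up to 146 FPKM in the knockout library and 76.0 FPKM in the wild-type library (median 0.69), led by Ramp2, at 41.2 FPKM in the knockout library and 17.3 FPKM in the wild-type library, and Cdh5, at 27.3 FPKM in the knockout library and 16.5 FPKM in the wild-type library. Of 6 Leydig cell markers 5 were measured, 2 of them at least 2-fold higher, with a sum of 136 FPKM in the knockout library and 60.5 FPKM in the wild-type library (median 0.99). They were led by Insl3, at 58.5 FPKM in the knockout library and 22.1 FPKM in the wild-type library, and Hsd3b1, at 32.6 FPKM in the knockout library and 16 FPKM in the wild-type library, while Star was at 0 in both. Of 6 erythroid markers 3 were measured, led by Hba-a1, at 7.18 FPKM in the knockout library and 3.76 FPKM in the wild-type library, and Hbb-bs, at 7.82 FPKM in the knockout library and 2.22 FPKM in the wild-type library.

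Beside the lower Itga6, the lists of germ cell markers differed in direction. The general and the differentiating lists had medians below 0. The undifferentiated list had a median near the 0.22 of all measured genes. All 12 markers of undifferentiated spermatogonia, the labelled cell type, were measured, with a sum of 424 FPKM in the knockout library and 370 FPKM in the wild-type library (median 0.23). At least 2-fold higher was 1, Id4 (35 FPKM in the knockout and 14.4 FPKM in the wild-type library), and lower 1, Neurog3 (4.06 and 9.63 FPKM). At the exon level 1 was 2-fold higher (background 4.87%) and 2 lower (background 2.94%), with Zbtb16 at 21 in the knockout library and 54.5 in the wild-type library. The bounds were apart for 6 higher markers (background 35.4%) and 2 lower (background 16.2%). Lin28a had 79.5 FPKM in the knockout library and 75.3 FPKM in the wild-type library, and Ret 50.7 FPKM in the knockout library and 40.4 FPKM in the wild-type library. The 8 general germ cell markers added up to 762 FPKM in the knockout library and 854 FPKM in the wild-type library (median -0.25, none 2-fold different), with Mael at 198 FPKM in the knockout library and 169 FPKM in the wild-type library and Dazl at 137 FPKM in the knockout library and 223 FPKM in the wild-type library. The 6 markers of differentiating spermatogonia added up to 236 FPKM in the knockout library and 304 FPKM in the wild-type library (median -0.55, 1 at least 2-fold lower, Kit). Among them Stra8 had 95.3 FPKM in the knockout library and 121 FPKM in the wild-type library, and Sohlh1 had 89.6 FPKM in the knockout library and 102 FPKM in the wild-type library. Dnmt3l itself (chromosome 10, 78042287 to 78063615, mm10) was listed at 0 in the knockout library (upper bound 0), and at 1.67 FPKM in the wild-type library (0.79 to 2.68). The coverage of 1 FPKM was 3.45 in the knockout library and 3.13 in the wild-type library, a relative depth of 1.10.

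**Figure D5:**
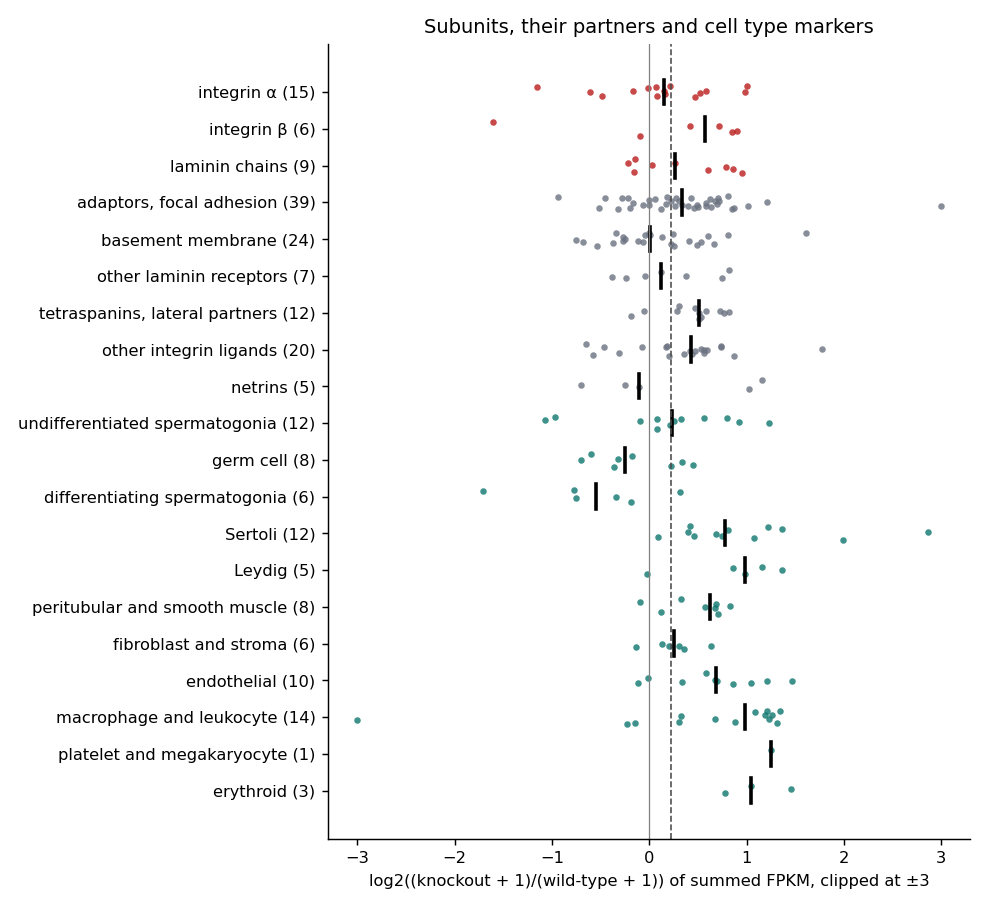
Log2 ratio of the knockout over the wild-type library by summed FPKM (x axis, clipped at 3 in either direction) for each measured gene (points) of the integrin and laminin groups, the 6 partner lists and the 11 cell type marker lists, with the number of measured genes in brackets; vertical bars are medians and the dashed line is the median of all measured genes, 0.22. Sertoli, Leydig, endothelial and macrophage markers have medians from 0.69 to 0.99, the integrin and laminin groups medians from 0.15 to 0.57.

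Because DNMT3L acts on methylation at CpG sites, the CpG content of the promoters is given as a description; methylation was not measured. RefSeq promoters (GRCm38.p6), each 300 bases from 250 before to 50 after the start, were matched for 22 of the 37 genes. Of these, 8 had 15 or more CpG sites, where 34.6% of all 32851 promoters had, and 3 had fewer than 5, where 38.0% had. The motif GGGCGG was present on either strand in 11 of the 22, where 35.7% of all promoters held it, and TATAAA in none, where 13.6% did. Measured members with 15 or more CpG sites, 8 genes, had a median of 19.1 FPKM in the knockout library and 10.2 FPKM in the wild-type library. The 10 with fewer had 2.42 FPKM in the knockout library and 2.67 FPKM in the wild-type library. Their log2 ratios had medians of 0.27 and 0.19 for the sum and -0.02 and 0.08 at the exon level. The promoters of 4 genes are shown with each CpG in capitals: Itgb1, with 27 sites the richest of the 22 and the highest integrin; Itga5 and Itgb8, with 13 sites each and opposite log2 ratios; and Lama2, with 1 site and the highest laminin α level. They lie at chr8:128685404-128685703 (plus strand), chr15:103366742-103367041 (minus), chr12:119238227-119238526 (minus) and chr10:27616893-27617192 (minus).
Itgb1 promoter: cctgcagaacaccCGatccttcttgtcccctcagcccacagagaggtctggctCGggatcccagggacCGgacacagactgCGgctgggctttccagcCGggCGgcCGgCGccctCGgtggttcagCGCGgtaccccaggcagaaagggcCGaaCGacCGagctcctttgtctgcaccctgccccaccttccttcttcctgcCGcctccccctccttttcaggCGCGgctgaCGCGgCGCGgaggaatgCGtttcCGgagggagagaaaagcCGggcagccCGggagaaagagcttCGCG
Itga5 promoter: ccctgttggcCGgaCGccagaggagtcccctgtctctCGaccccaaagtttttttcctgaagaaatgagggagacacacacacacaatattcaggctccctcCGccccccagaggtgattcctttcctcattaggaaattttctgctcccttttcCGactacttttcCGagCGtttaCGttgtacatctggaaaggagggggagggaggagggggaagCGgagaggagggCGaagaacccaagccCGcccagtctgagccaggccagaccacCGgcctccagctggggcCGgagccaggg
Itgb8 promoter: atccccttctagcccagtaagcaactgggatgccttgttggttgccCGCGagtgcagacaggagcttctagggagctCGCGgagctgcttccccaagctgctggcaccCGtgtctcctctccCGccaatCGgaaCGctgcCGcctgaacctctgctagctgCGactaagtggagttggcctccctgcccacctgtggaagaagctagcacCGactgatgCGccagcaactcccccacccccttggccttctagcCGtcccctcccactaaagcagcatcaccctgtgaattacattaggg
Lama2 promoter: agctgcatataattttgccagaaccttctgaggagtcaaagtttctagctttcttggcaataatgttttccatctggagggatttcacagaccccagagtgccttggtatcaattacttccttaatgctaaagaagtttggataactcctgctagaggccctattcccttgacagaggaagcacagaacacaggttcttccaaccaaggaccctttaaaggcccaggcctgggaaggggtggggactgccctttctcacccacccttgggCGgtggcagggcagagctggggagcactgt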

How the data were processed

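Poly(A) RNA of 1 Dnmt3l knockout and 1 wild-type sample was fragmented, copied with random primers and read as paired ends of 100 nt, per the labels' protocols. The submitters' processing notes name CASAVA 1.9, TopHat2 2.0.8, Cufflinks 2.1.1 and the build mm10, without settings. The authors deposited 1 transcript file per library with FPKM, bounds, coverage and a score for 30073 RefSeq transcripts and for 20415 assembled models in the knockout and 20579 in the wild-type library. FPKM values entered as deposited, and the score was ignored. Counts are not in the files, so depth is known only through the coverage that corresponds to 1 FPKM.

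RefSeq identifiers received gene symbols by accession for 29116 of 30079, otherwise by GENCODE M21 exons or the name in the file, and 30 had none. Assembled models of at least 300 nt went to the same-strand gene with the most shared exon bases, or, if unstranded, where this share was at least 0.5. The ratio used a pseudocount of 1 and genes with at least 1 FPKM in either library and a transcript of at least 300 nt. Named are the members of the symbol rule, the 3 largest absolute ratios of each partner list among genes above 0 in both libraries, all type IV collagen chains and nidogens, and the 2 most abundant genes of each marker list. The other named genes (kindlins, Fn1, Ptprc, Kit and genes that were called or listed at 0) were chosen after their values were seen. Some genes that this rule names are not reported here. The members and lists were chosen with earlier results of these data known. Alternatives were pseudocounts of 0.1 and 5, other filters, scalings and thresholds, RefSeq transcripts alone, the exon level, the coverage, a length adjustment in 20 bins and, added after seeing the data, the end levels. The computation was tested on simulated data. Python 3.11.15, pandas 2.3.3, numpy 2.4.6 and matplotlib 3.10.9 were used.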

Additional observations from a re-analysis of the deposited data

How the results depend on the processing

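No paired analysis was possible because there was 1 library of each genotype, and for the same reason no library could be left out. The count of genes at least 2-fold higher, 1 as reported, was 4 with a pseudocount of 0.1, 0 with a pseudocount of 5, 0 centred on the median gene, 0 with upper-quartile scaling, 2 with RefSeq transcripts only, 0 at the exon level, 6 with the coverage, 4 with the length bin median subtracted, 9 at 1.5-fold and 0 over the first 1000 nt. The count at least 2-fold lower, 2 as reported, was 0 with a pseudocount of 5, 1 with a filter of 10 FPKM, 4 with RefSeq transcripts only, 1 at the exon level, 1 over the last 1000 nt and 3 at 1.5-fold. The median log2 ratio, 0.19, was 0.70 with a filter of 10 FPKM, which leaves 12 members, 0.36 with the coverage and 0.04 with upper-quartile scaling. It was below 0 centred on the median gene (-0.02), with RefSeq transcripts only (-0.05) and over the first 1000 nt (-0.19). By the bounds of each gene it could lie between -0.26 and 0.67. With RefSeq transcripts only, the log2 ratio was -0.30 for Itga3, 3.54 for Itga6 and 0.62 for Itgb8; Itga6 and Itgb8 are listed at 0 for RefSeq in the wild-type library. Over the first 1000 nt Itga3 was at -0.30. The median log2 ratio over genes that reached 1 FPKM in each library was 0.21. Of all genes called 2-fold, the share on the higher side was 68.6% with values as deposited, 47.3% centred, 49.6% with upper-quartile scaling and 50.8% with RefSeq transcripts only. Itga5, Itgal, Itgb2, Itgb5 and Lamb2 were above 0 in every alternative computed for them, and Itgav and Lama4 below 0; for Itgb5 and Lamb2 the lowest were 0.10 and 0.14.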
